A study of Rattus norvegicus with 6 samples.

Results

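The 10 genes described here encode chaperones, folding enzymes and a transcription factor of the endoplasmic reticulum (ER) stress response: Hspa5, Hsp90b1, Hyou1, Dnajb9, Sdf2l1, Pdia4, Pdia6, Creld2, Manf and Xbp1. They were chosen by gene name from tables of 18077 gene rows, and each name occurred once. RNA sequencing of polyA-selected RNA was done on 6 libraries of cells labelled as neonatal rat cardiomyocytes. The labels give 3 libraries labelled Ad-RNF128, made from cells with an adenovirus for overexpression of the ubiquitin ligase RNF128, and 3 labelled Ad-GFP, whose adenovirus is named for green fluorescent protein and whose treatment field reads WT. All 6 came from primary cultures of pups aged 1 to 3 days, and all received 500 µM palmitic acid for 24 h, with harvest stated at 48 h, so no library shows cells without palmitate or without virus. The labels do not say whether replicates were separate isolations, so p-values measure only the spread between these libraries, which may be technical.

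The ER folds secreted and membrane proteins. When unfolded protein builds up there, the sensor ATF6 is cut into an active transcription factor, the sensor IRE1 (encoded by Ern1) splices Xbp1 mRNA so that it encodes an active factor, and the sensor PERK slows translation and favours that of ATF4. ATF6 and spliced XBP1 act on chaperone genes such as these through promoter elements, of which the ER stress response element (ERSE) joins a CCAAT box, bound by the factor NF-Y, to the half-site CCACG. Palmitate is a known trigger of this response in cultured cells, and cells that secrete much collagen depend on these chaperones.

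Upstream sequences are shown because the ERSE is the feature through which ATF6 and XBP1 are known to reach these genes. RefSeq windows (build GRCr8, from 250 bases before the annotated start to 50 bases after it) were held for 8 of the 10 genes, all but Manf and Pdia6. The strict ERSE, CCAAT and CCACG with any 9 bases between them on either strand, occurred in 4 of the 8, namely Hspa5, Hsp90b1, Creld2 and Xbp1, and in 0.0765% of all 27457 genes with a window. The compact ERSE-II, ATTGG and CCACG with any 1 base between them on either strand, occurred in Hyou1 alone among the 8 and in 0.0619% of all genes. In Hspa5 the ERSE lies 43 to 25 bases before the start, shown in capitals in the 250 bases before the start.
Hspa5, chr3:38452766-38453015, plus strand: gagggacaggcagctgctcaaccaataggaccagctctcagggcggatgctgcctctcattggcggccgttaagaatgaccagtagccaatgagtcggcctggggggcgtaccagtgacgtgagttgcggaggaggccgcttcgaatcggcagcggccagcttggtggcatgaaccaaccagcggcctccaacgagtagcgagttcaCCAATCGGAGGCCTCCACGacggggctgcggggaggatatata
Hsp90b1 holds a pair of them in opposite orientations, 176 to 158 and 72 to 54 bases before the start, in capitals here with the bases between.
Hsp90b1, chr7:23012317-23012499, minus strand: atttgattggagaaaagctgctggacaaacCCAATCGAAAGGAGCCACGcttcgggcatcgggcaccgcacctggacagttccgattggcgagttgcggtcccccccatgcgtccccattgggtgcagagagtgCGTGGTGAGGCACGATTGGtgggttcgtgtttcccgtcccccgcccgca
In Xbp1 the element lies 65 to 47 bases before the start, and in Creld2 it lies 145 to 127 bases before the start on the opposite strand. Each is shown in capitals with 30 bases on either side.
Xbp1, chr14:84604528-84604606, plus strand: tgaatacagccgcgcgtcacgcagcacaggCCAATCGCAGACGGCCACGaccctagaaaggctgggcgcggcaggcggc
Creld2, chr7:121789209-121789287, plus strand: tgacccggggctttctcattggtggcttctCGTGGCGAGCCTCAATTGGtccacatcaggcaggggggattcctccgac
Hyou1 holds 2 ERSE-II elements on the opposite strand, 188 to 178 and 88 to 78 bases before the start. They overlap CCAAT boxes by construction, and the first overlaps a UPRE core, TGACGTGG searched on both strands, which 0.681% of all genes hold and no other of the 8 does.
Hyou1, chr8:53602664-53602834, plus strand: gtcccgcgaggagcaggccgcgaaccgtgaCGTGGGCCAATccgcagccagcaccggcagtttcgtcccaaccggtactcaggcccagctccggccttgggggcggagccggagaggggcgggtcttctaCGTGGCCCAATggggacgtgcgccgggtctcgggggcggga
No ERSE, ERSE-II or UPRE core was found in the windows of Sdf2l1, Pdia4 and Dnajb9. All 8 genes hold the bare CCAAT box in at least 1 orientation, as do 39.6% of all genes. The 250 bases before the start are shown for Sdf2l1 and Pdia4, because these genes without an ERSE or ERSE-II were called in opposite directions when Ad-GFP replicate 1 was left out, with CCAAT boxes of either orientation in capitals.
Sdf2l1, chr11:97376628-97376877, plus strand: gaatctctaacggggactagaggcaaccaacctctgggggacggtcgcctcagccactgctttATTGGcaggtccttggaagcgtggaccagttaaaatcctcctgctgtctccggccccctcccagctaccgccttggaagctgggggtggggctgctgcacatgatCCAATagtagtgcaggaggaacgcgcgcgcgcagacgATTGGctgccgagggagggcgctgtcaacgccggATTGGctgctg
Pdia4, chr4:78153192-78153441, minus strand: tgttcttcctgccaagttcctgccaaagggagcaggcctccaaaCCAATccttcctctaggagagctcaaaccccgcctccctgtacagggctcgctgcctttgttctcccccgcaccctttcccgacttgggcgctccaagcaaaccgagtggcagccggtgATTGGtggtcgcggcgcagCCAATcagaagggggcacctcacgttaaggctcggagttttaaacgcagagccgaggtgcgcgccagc
A match describes these letters in this window, and its absence says nothing about the factor.

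Facts of the libraries bear on every value. Library totals ran from 17099149 to 21708973 counts in the libraries labelled Ad-RNF128 and from 16352843 to 21332585 in those labelled Ad-GFP. Ad-GFP replicate 1 stood apart, with Spearman correlations of 0.776 to 0.818 with the others, which correlated with each other at 0.964 to 0.989. It is therefore given separately, and each comparison is given with and without it. In this replicate 10.8% of counts fell on ribosomal protein genes and 0.951% on mitochondrial genome rows, against 3.02 to 4.69% and 3.08 to 5.35% elsewhere. The mitochondrial share was 3.08 to 3.32% in the libraries labelled Ad-RNF128, against 4.91 and 5.35% in Ad-GFP replicates 2 and 3. Rnf128 itself had at most 3 reads in any library labelled Ad-RNF128, against at most 2 in any Ad-GFP library, so its counts do not bear out the label from which all directions are drawn. Of the 7 cardiomyocyte markers found, Tnnt2 was at 57.4, 42.3 and 34.0 CPM (counts per 1000000 counts of the library) in the libraries labelled Ad-RNF128, against 342 and 350.4 CPM in Ad-GFP replicates 2 and 3, and at 13.3 CPM in replicate 1. The other 6 were at most at 17.5 CPM in any library.

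Among the HSP70 and HSP90 chaperones of the ER, Hsp90b1 and Hyou1 were lower in the libraries labelled Ad-RNF128 than in Ad-GFP replicates 2 and 3, whereas Hspa5 did not pass the test. Hspa5 (ENSRNOG00000018294) encodes BiP, the HSP70 chaperone that also binds the stress sensors. It was at 1018, 1066 and 1032 CPM in the libraries labelled Ad-RNF128, against 1065 and 1001 CPM in Ad-GFP replicates 2 and 3, and at 163 CPM in Ad-GFP replicate 1. The first 5 values overlap and lie far above the sixth. On TMM scaling, which sets the bulk of genes equal between libraries, its log2 change was -0.15 ± 0.06 (SE), with an edgeR adjusted p of 0.0538.

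Hsp90b1 (ENSRNOG00000026963) encodes GRP94, the HSP90 of the ER, which folds integrins and Toll-like receptors. It was at 1411, 1425 and 1318 CPM in the libraries labelled Ad-RNF128, against 1829 and 1684 CPM in Ad-GFP replicates 2 and 3, and at 66.0 CPM in Ad-GFP replicate 1. All 3 libraries labelled Ad-RNF128 lay below both of those controls. The log2 change without Ad-GFP replicate 1 was -0.50 ± 0.06 (SE, edgeR adjusted p = 9.8e-06). Read for read, Hspa5 and Hsp90b1 moved apart: the ratio of Hspa5 to Hsp90b1 counts was 0.722, 0.748 and 0.783 in the libraries labelled Ad-RNF128, against 0.582 and 0.594 in Ad-GFP replicates 2 and 3, and 2.47 in replicate 1. This ratio does not depend on library scaling.

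Hyou1 (ENSRNOG00000010944) encodes GRP170, a nucleotide exchange factor for BiP and a chaperone in its own right. It was at 225, 234 and 238 CPM in the libraries labelled Ad-RNF128, against 311 and 329.7 CPM in Ad-GFP replicates 2 and 3, and at 162 CPM in Ad-GFP replicate 1. The groups did not overlap when replicate 1 was left out, and replicate 1 lay below all other libraries. The log2 change without it was -0.62 ± 0.07 (SE, edgeR adjusted p = 1.74e-06), which is 0.652 times on TMM scaling. Mean CPM, without that scaling, fell by 27.4%.

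Of the partners of BiP, Sdf2l1 was higher in the libraries labelled Ad-RNF128 than in Ad-GFP replicates 2 and 3, and Dnajb9 did not pass the test. Sdf2l1 (ENSRNOG00000001859) encodes a protein found in complexes with ER DNAJ co-chaperones. It was at 41.9, 44.1 and 39.7 CPM in the libraries labelled Ad-RNF128, against 22.6 and 25.8 CPM in Ad-GFP replicates 2 and 3. In Ad-GFP replicate 1 it was at 208 CPM, above every other library. Without that replicate the log2 change was 0.63 ± 0.09 (SE, edgeR adjusted p = 2.53e-05), the single called rise among the 9 tested genes. With it the sign turned, at -2.23 ± 1.27 (SE, edgeR adjusted p = 0.681).

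Dnajb9 (ENSRNOG00000004006) encodes ERdj4, a DNAJ co-chaperone that directs BiP to the sensor IRE1. It was at 24.2, 25.2 and 23.8 CPM in the libraries labelled Ad-RNF128, against 20.1 and 20.4 CPM in Ad-GFP replicates 2 and 3, and at 1.35 CPM (22 reads) in Ad-GFP replicate 1. The groups did not overlap in CPM, yet the scaled log2 change was 0.11 ± 0.08 (SE, edgeR adjusted p = 0.269). With library totals alone it was 0.27 (edgeR adjusted p = 0.0131). That setting moved the median log2 change of all tested rows to 0.17, against 0.01 with TMM.

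Both disulfide isomerases were lower in the libraries labelled Ad-RNF128 than in Ad-GFP replicates 2 and 3, and lower still in Ad-GFP replicate 1. Pdia4 (ENSRNOG00000006228) encodes ERp72, which forms and rearranges disulfide bonds. It was at 446, 456 and 437 CPM in the libraries labelled Ad-RNF128, against 746 and 755 CPM in Ad-GFP replicates 2 and 3, and at 33.5 CPM in Ad-GFP replicate 1. Its log2 change of -0.90 ± 0.06 (SE, edgeR adjusted p = 1.07e-08) without replicate 1 was the furthest from 0 among the 9 tested genes, and 4.78% of all tested rows had a lower one. Mean CPM, without TMM scaling, fell by 40.6%.

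Pdia6 (ENSRNOG00000050197) encodes P5, an isomerase that binds BiP and attenuates IRE1 and PERK. It was at 438, 444 and 427 CPM in the libraries labelled Ad-RNF128, against 538 and 518 CPM in Ad-GFP replicates 2 and 3, and at 34.0 CPM in Ad-GFP replicate 1. Without replicate 1 the groups were apart, with a log2 change of -0.43 ± 0.06 (SE, edgeR adjusted p = 2.41e-05).

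The secreted or ER-resident stress proteins showed no called change. Creld2 (ENSRNOG00000004659), a stress-induced gene for a protein with EGF-like domains, was at 66.3, 69.1 and 61.3 CPM in the libraries labelled Ad-RNF128, against 66.4 and 65.6 CPM in Ad-GFP replicates 2 and 3, and at 54.6 CPM in Ad-GFP replicate 1. The groups overlapped, and the log2 change without replicate 1 was -0.16 ± 0.07 (SE, edgeR adjusted p = 0.0613). Manf (ENSRNOG00000014201), a BiP-binding factor with neurotrophic activity, had 4, 7 and 0 reads in the libraries labelled Ad-RNF128, against 5 reads each in Ad-GFP replicates 2 and 3, and 2 reads in Ad-GFP replicate 1. It did not pass the low-count filter, and its ratio of 0.746 had a 95% counting interval of 0.288 to 1.96, so a difference was not detectable at this depth.

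Xbp1 (ENSRNOG00000010298), the transcription factor of the IRE1 arm, was at 108, 101 and 107 CPM in the libraries labelled Ad-RNF128, against 111 and 113 CPM in Ad-GFP replicates 2 and 3, and at 148 CPM in Ad-GFP replicate 1, the highest of all. Its log2 change without replicate 1 was -0.25 ± 0.07 (SE, edgeR adjusted p = 0.00512). With library totals alone that call ended, at -0.09 (edgeR adjusted p = 0.209). Counts per gene do not separate spliced from unspliced Xbp1 mRNA, so the activity of this arm was not measured.

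**Figure D1:**
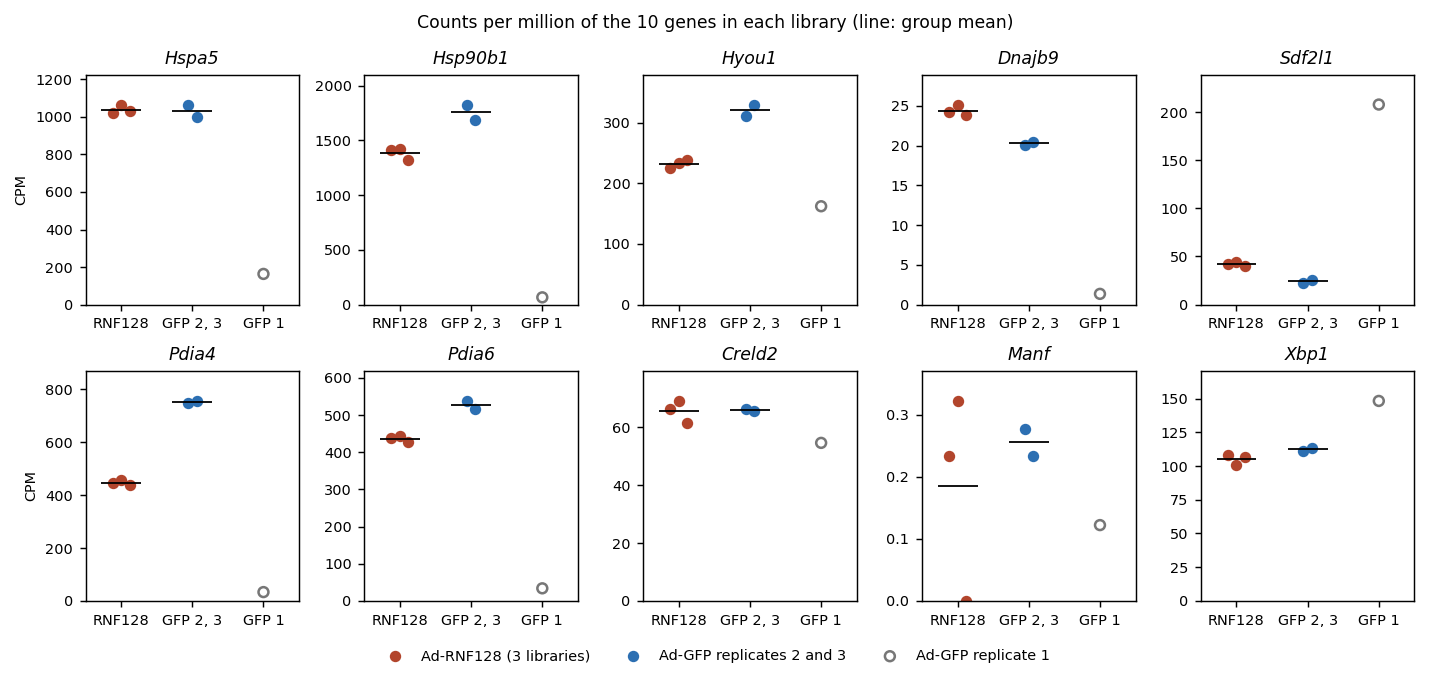
CPM (y axis, from 0, one scale per gene) of the 10 genes in the 3 libraries labelled Ad-RNF128, in Ad-GFP replicates 2 and 3 and in Ad-GFP replicate 1, with a line at each group mean. Pdia4, Hyou1, Hsp90b1 and Pdia6 lie lower and Sdf2l1 higher in the libraries labelled Ad-RNF128 than in Ad-GFP replicates 2 and 3, and Ad-GFP replicate 1 is far from both for most genes.

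Over the set, edgeR without Ad-GFP replicate 1 called 6 of the 9 tested genes, 1 higher and 5 lower. Of 13173 rows tested in that comparison 56.9% were called, 28.9% higher and 28% lower, so a count of 6 called is near the background while the median log2 change was -0.25, against 0.01 over all tested rows. The 3 libraries labelled Ad-RNF128 did not overlap Ad-GFP replicates 2 and 3 in CPM for 7 of the 9 genes, where 72.3% of all tested rows did not. The calls of Hsp90b1, Hyou1, Pdia4, Pdia6 and Sdf2l1 held in each alternative without Ad-GFP replicate 1 that kept Ad-GFP replicates 2 and 3. Leaving out replicate 2 or 3 as well left 1 control library, and the log2 changes of these genes kept their signs. Hspa5 was called lower in 6 of the alternatives that kept both of those controls and had a log2 change of 0.0083 with library totals alone.

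With all 6 libraries, edgeR called 0 of the 9 genes, as it called 0% of 12863 rows. The smallest adjusted p of the 9 was 0.681, and 0 had an unadjusted p under 0.05, against 5.77% of all tested rows. DESeq2 and limma-voom also called 0 of the 9, against 386 and 14 of all 12863 rows. DESeq2 gave no adjusted p for Sdf2l1, so it did not judge that gene. The log2 changes over all 6 libraries were 0.19 ± 0.48 for Hspa5, 0.02 ± 0.85 for Hsp90b1 and -0.70 ± 0.31 for Hyou1 (SE). Those of the isomerases were -0.40 ± 0.81 for Pdia4 and 0.04 ± 0.71 for Pdia6, and those of Dnajb9, Creld2 and Xbp1 were 0.58 ± 0.71, -0.55 ± 0.40 and -1.01 ± 0.55. The SEs were 4.68 to 14.4 times those without Ad-GFP replicate 1. In CPM, 2 of the 9 genes, Dnajb9 and Xbp1, had groups of 3 that did not overlap, against 34% of all tested rows.

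**Figure D2:**
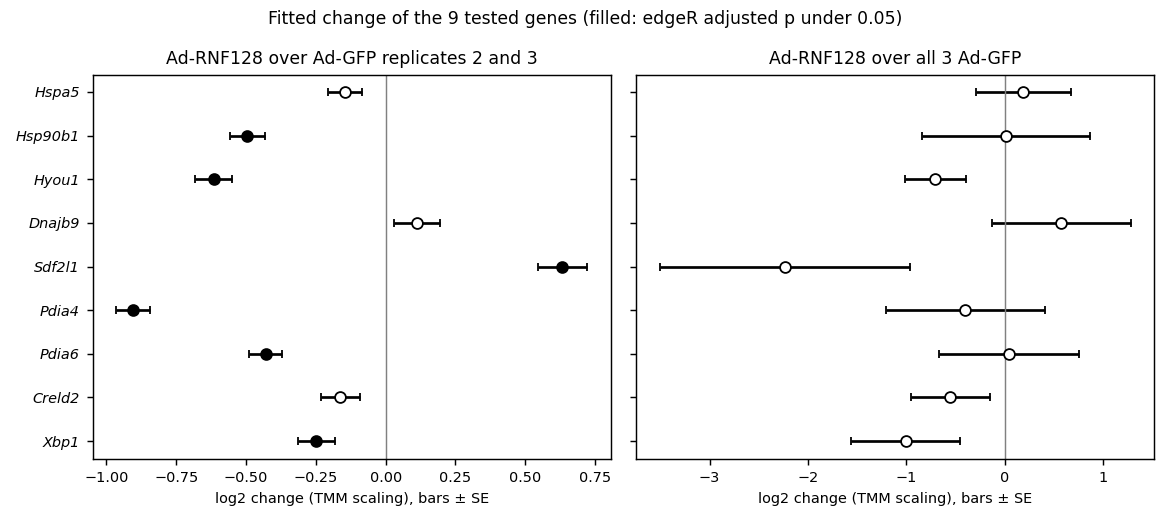
Fitted log2 change (x axis, TMM scaling, bars ± SE, a different scale in each panel) of the 9 tested genes, without Ad-GFP replicate 1 on the left and with all 6 libraries on the right, with filled points at an edgeR adjusted p under 0.05. On the left 6 points are filled, from -0.90 for Pdia4 to 0.63 for Sdf2l1, and on the right none is.

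Ad-GFP replicate 1 did not shift the 10 genes evenly. Relative to the mean of Ad-GFP replicates 2 and 3 its CPM was 0.0376 times for Hsp90b1, 0.0446 times for Pdia4, 0.0644 times for Pdia6, 0.0664 times for Dnajb9 and 0.158 times for Hspa5. Hyou1 was at 0.506 times and Creld2 at 0.827 times, whereas Xbp1 was at 1.32 times and Sdf2l1 at 8.59 times. Of the 9 genes tested, 7 lay below all 5 other libraries in it and 2 above. The median log2 ratio of the 9 was -2.66, against -1.68 over 12249 tested rows with reads on both sides, and 4 of the 9 were at least 8-fold lower, as were 37.1% of those rows. Summed over the 10 genes, the level was 3779, 3865 and 3684 CPM in the libraries labelled Ad-RNF128, against 4710 and 4514 CPM in Ad-GFP replicates 2 and 3, and 871 CPM in Ad-GFP replicate 1.

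**Figure D3:**
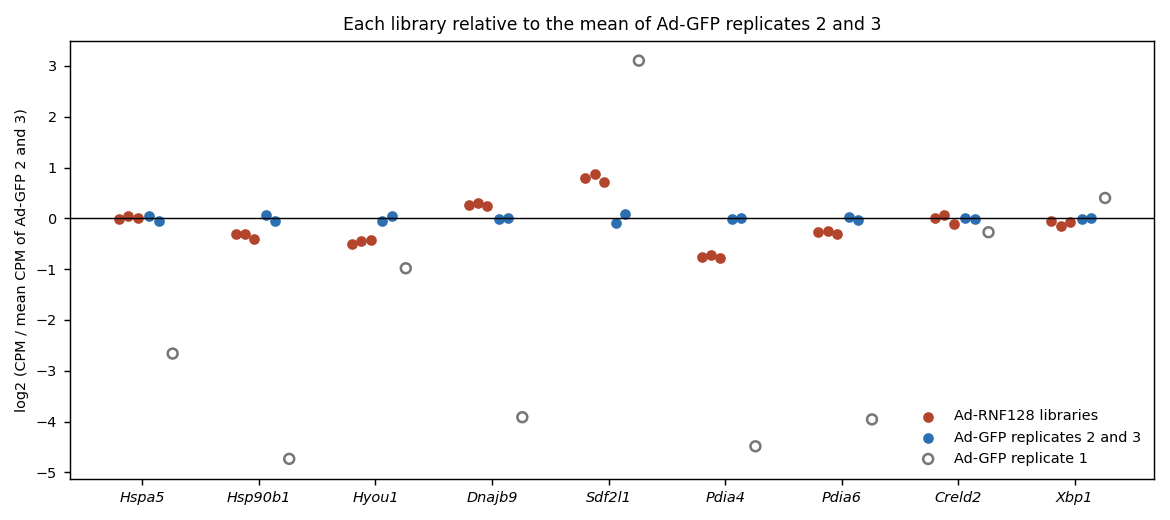
Log2 of each library's CPM over the mean CPM of Ad-GFP replicates 2 and 3 (y axis) for the 9 genes with enough reads. The libraries labelled Ad-RNF128 stay within 1 log2 unit of that mean for every gene, while Ad-GFP replicate 1 spans -4.73 for Hsp90b1 to 3.10 for Sdf2l1.

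The genes whose pattern over the 6 libraries was most like that of Hspa5 were Zfp239, Ugdh, Ctdspl, AABR07039446.1 and Kdm4a, with Pearson correlations of scaled log2 CPM of 0.9997 to 0.9999. Hspa5 varied little among the other 5 libraries, so these correlations turn on Ad-GFP replicate 1, and 4176 of 10253 rows compared reached 0.95. In that order Hsp90b1 ranked 531 (r = 0.998), Pdia6 964 (r = 0.996), Dnajb9 3080 (r = 0.982) and Pdia4 3733 (r = 0.968). Hyou1, Creld2, Xbp1 and Sdf2l1 had negative correlations with Hspa5, from -0.51 for Hyou1 to -0.997 for Sdf2l1.

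The genes of the stress sensors upstream of the chaperones changed in both directions without Ad-GFP replicate 1: Atf6 and Ern1 rose in the libraries labelled Ad-RNF128, while Eif2ak3, which encodes PERK, and the ATF6 relative Atf6b fell. Of 12 tested sensor and regulator genes 3 rose and 6 fell (median log2 change -0.18), so 75% were called, against the 56.9% of all tested rows. Atf6, the sensor of the ATF6 arm, was at 258, 259 and 255 CPM in the libraries labelled Ad-RNF128, against 119.9 and 112 CPM in Ad-GFP replicates 2 and 3, and at 13.1 CPM in replicate 1. Its log2 change was 1.00 ± 0.06 (SE, edgeR adjusted p = 6.11e-09). Ern1, which encodes IRE1, was at 18.3, 18.8 and 18.3 CPM in the libraries labelled Ad-RNF128, against 7.09 and 7.17 CPM in Ad-GFP replicates 2 and 3, and at 2.57 CPM in replicate 1, with a log2 change of 1.22 ± 0.11 (SE, edgeR adjusted p = 3.08e-07). Both mRNAs were above both of those controls in all 3 libraries. Eif2ak3, named here with Atf6b after its values were seen, was at 30.5, 28.9 and 31.4 CPM in the libraries labelled Ad-RNF128, against 40.5 and 38.9 CPM in Ad-GFP replicates 2 and 3, and at 1.22 CPM in replicate 1. All 3 libraries labelled Ad-RNF128 lay below those controls, with a log2 change of -0.55 ± 0.07 (SE, edgeR adjusted p = 2.16e-05). Atf6b was at 79.3, 77.0 and 85.2 CPM in the libraries labelled Ad-RNF128, against 87.5 and 77.1 CPM in Ad-GFP replicates 2 and 3, and at 117 CPM in replicate 1. Its groups overlapped in CPM, and its call (log2 change -0.18 ± 0.07, SE, edgeR adjusted p = 0.0435) was lost in 6 of 13 other fits without that replicate. Mbtps1, the protease that first cuts ATF6, fell by 0.57 and Creb3l2, an ATF6-like factor that acts on secretory genes, fell by 0.64 on the log2 scale, with edgeR adjusted p of 4.84e-06 and 8.25e-07.

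Other ER folding genes changed in both directions, with 3 of 18 higher and 7 lower without Ad-GFP replicate 1 (median log2 change -0.11). The 55.6% called is near the 56.9% of all tested rows. Txndc5, an isomerase of the same family as Pdia4, was at 227, 210.1 and 230.4 CPM in the libraries labelled Ad-RNF128, against 466 and 473 CPM in Ad-GFP replicates 2 and 3, and at 358 CPM in replicate 1. Pdia5, another isomerase, was at 35.8, 36.5 and 31.7 CPM in the libraries labelled Ad-RNF128, against 78.9 and 72.1 CPM in Ad-GFP replicates 2 and 3, and at 11.6 CPM in Ad-GFP replicate 1. Their log2 changes were -1.23 ± 0.07 and -1.27 ± 0.07 (SE, edgeR adjusted p of 7.44e-10 and 2.36e-09). Ero1a, the oxidase that recharges the isomerases, rose instead: it was at 174, 177 and 168 CPM in the libraries labelled Ad-RNF128, against 66.0 and 70.2 CPM in Ad-GFP replicates 2 and 3, and at 8.68 CPM in replicate 1 (log2 change 1.19 ± 0.07, SE, edgeR adjusted p = 2.47e-09). Cnpy2, a saposin-like ER protein, was at 153, 157 and 151 CPM in the libraries labelled Ad-RNF128, against 88.0 and 83.5 CPM in Ad-GFP replicates 2 and 3. Without replicate 1 it rose by 0.69 ± 0.06 (SE, edgeR adjusted p = 4.02e-07). In replicate 1 it was at 169.6 CPM, above every other library, and with all 6 libraries the sign turned, at -0.45 ± 0.69 (SE, edgeR adjusted p = 0.914).

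Of 20 genes for ER-associated degradation and protein entry into the ER, 2 rose and 8 fell without Ad-GFP replicate 1 (median log2 change -0.14). The 50% called is below the 56.9% of all tested rows. Vcp, the ATPase that pulls misfolded proteins out of the ER membrane, was at 51.2, 36.8 and 43.3 CPM in the libraries labelled Ad-RNF128, against 611 and 480.2 CPM in Ad-GFP replicates 2 and 3, and at 785 CPM in replicate 1. Its log2 change was -3.80 ± 0.11 without replicate 1 (SE, edgeR adjusted p = 1.37e-12), and it was low in all 3 libraries labelled Ad-RNF128. Ssr1 and Sec63, which serve the translocation channel, fell by 0.45 and 0.44 on the log2 scale, and Sec61b, a subunit of the channel, fell by 0.44 (edgeR adjusted p of 2.43e-05, 4.86e-05 and 7.1e-05).

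In the PERK-ATF4 list 6 of 9 genes rose and 2 fell without Ad-GFP replicate 1 (median log2 change 0.41), where 28.9% of all tested rows were higher and 28% lower. With all 6 libraries the direction turned, to a median of -0.58 with 7 of the 9 log2 changes negative and none called. Ddit3, which encodes CHOP, was at 155, 162 and 142 CPM in the libraries labelled Ad-RNF128, against 31.9 and 26.7 CPM in Ad-GFP replicates 2 and 3, and at 143 CPM in replicate 1. Chac1, an enzyme that degrades glutathione, was at 72.0, 75.0 and 69.1 CPM in the libraries labelled Ad-RNF128, against 37.0 and 35.2 CPM in Ad-GFP replicates 2 and 3, and at 279 CPM in Ad-GFP replicate 1. Chac1, Trib3, a pseudokinase gene, and Atf3, a stress-induced transcription factor gene, had log2 changes of 0.84 ± 0.07, 1.95 ± 0.08 and 3.41 ± 0.15 (SE, edgeR adjusted p of 1.39e-07, 4.14e-11 and 1.16e-10). Ad-GFP replicate 1 held Chac1, Trib3 and Atf3 above every other library, and with it no gene of these 4 lists passed edgeR, while 1 or 2 genes of each had an unadjusted p under 0.05. With library totals alone and without that replicate, the counts of higher and lower genes were 4 and 4 for sensors, 5 and 6 for folding, 5 and 6 for degradation and entry, and 7 and 2 for PERK-ATF4. In that fit 5367 of all 13173 tested rows were called higher and 2409 lower.

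**Figure D4:**
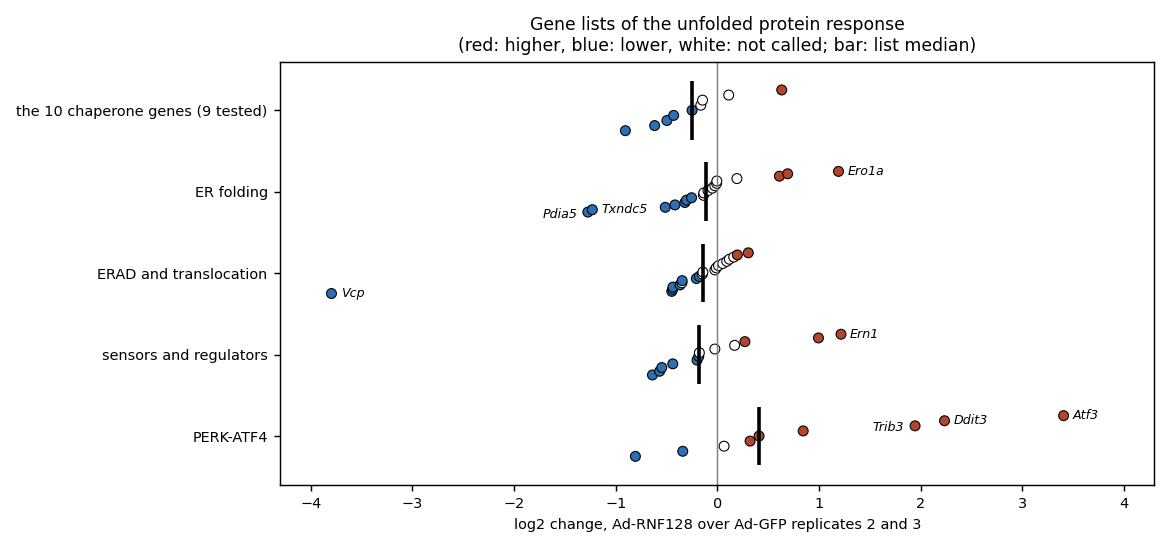
Log2 change (x axis) of the 9 tested chaperone genes and of the other unfolded protein response lists, for the libraries labelled Ad-RNF128 over Ad-GFP replicates 2 and 3, with red points higher, blue points lower, white points not called and a bar at each list's median. The medians are -0.25, -0.11, -0.14, -0.18 and 0.41 from top to bottom, and Vcp at -3.80 and Atf3 at 3.41 are the extremes.

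Promoter elements were then set beside the measured changes. Of the 5 genes with an ERSE or ERSE-II, Hsp90b1, Hyou1 and Xbp1 were called lower and Hspa5 and Creld2 were not called, and of the 3 without one Pdia4 was lower, Sdf2l1 higher and Dnajb9 not called. Across all windows 38 genes held an ERSE or ERSE-II, of which 24 were tested. Without Ad-GFP replicate 1, 4 of these were higher, 10 lower and 10 not called, with a median log2 change of -0.18. The 58.3% called is near the 56.9% of all tested rows. With all 6 libraries edgeR called 0 of the 24, 0 had an unadjusted p under 0.05, and the median was -0.0046. With library totals alone and without that replicate 6 were higher and 7 lower (5367 and 2409 of all 13173 tested rows), with a median of -0.03. Besides the 5 described here they include the chaperone and degradation genes Calr, Canx, Dnajb11, Dnajc3, Ero1b, Derl3 and Herpud1. Of these Calr and Herpud1 were called lower without Ad-GFP replicate 1 (log2 changes of -0.32 and -0.21). The Herpud1 call ended with library totals alone, at -0.05 (edgeR adjusted p = 0.476), and replicate 1 held it at 403 CPM, above every other library. The other genes called lower were Birc5, Cdc27, Hnrnpa3, Pan2 and Zfp57. The 4 higher ones, named after their values were seen, were Zfand2a (1.12), Nucb1 (0.79), Ggct (0.46) and Ankmy2 (0.28). Ad-GFP replicate 1 held Nucb1 at 893 CPM, above every other library. It held Zfand2a at 188 CPM, against 79.5 and 77.8 CPM in Ad-GFP replicates 2 and 3. With all 6 libraries the signs of Nucb1 and Zfand2a turned, at log2 changes of -0.75 and -0.22. Those of Ggct and Ankmy2 stayed positive, at 0.46 and 0.61.

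The summed level of the fibroblast markers, like the summed chaperone level, was lowest in Ad-GFP replicate 1 and highest in Ad-GFP replicates 2 and 3. The order among the libraries labelled Ad-RNF128, and between Ad-GFP replicates 2 and 3, differed. The sums of the other marker lists did not split the libraries in this way, but single genes in them did, so the order is not particular to fibroblast markers. These include Tnnt2, Acta2, Myog and Myh3. Myog was at 7.43, 4.88 and 6.54 CPM in the libraries labelled Ad-RNF128, against 33.0 and 35.4 CPM in Ad-GFP replicates 2 and 3, and at 3.85 CPM in replicate 1. The 7 fibroblast markers summed to 10251 to 11145 CPM in the libraries labelled Ad-RNF128, against 38192 and 39798 CPM in Ad-GFP replicates 2 and 3, and 2956 CPM in replicate 1. Of these markers Col1a1, Col1a2 and Col3a1 carry most of the reads, while Pdgfra, Dcn and Lum stayed at or under 2.86 CPM everywhere. Without Ad-GFP replicate 1, edgeR called 5 of the 7 lower, where 28% of all tested rows were lower and 28.9% higher. The 7 cardiomyocyte markers found summed to 34.9 to 110.5 CPM in the libraries labelled Ad-RNF128, against 389.7 and 388.7 CPM in Ad-GFP replicates 2 and 3, and 67.1 CPM in replicate 1. That difference lies in Tnnt2, the single one called (log2 change -3.12, edgeR adjusted p = 6.43e-11). The other 6 summed to 53.1, 38.4 and 0.883 CPM in the libraries labelled Ad-RNF128, against 47.4 and 38.4 CPM in Ad-GFP replicates 2 and 3, and 53.8 CPM in replicate 1. In Ad-RNF128 replicate 3, Myh6 was at 0.104 CPM and Nppa at 0. The 5 smooth muscle and pericyte markers summed to 5020 to 5591 CPM in the libraries labelled Ad-RNF128, against 5240 and 5827 CPM in Ad-GFP replicates 2 and 3, and 4694 CPM in replicate 1. Within that sum the genes moved in both directions. Without replicate 1, edgeR called 2 of 4 tested higher, Myh11 (log2 change 1.57) and Tagln (0.20), and 1 lower, Acta2 (-0.38). Skeletal myoblast markers summed to 34.5 to 39.2 CPM in the libraries labelled Ad-RNF128, against 87.7 and 89.9 CPM in Ad-GFP replicates 2 and 3, and 67.5 CPM in replicate 1. Without replicate 1 all 3 tested were called lower (28% of all tested rows were). Macrophage markers were higher, at a sum of 3.48 to 4.56 CPM in the libraries labelled Ad-RNF128, against 1.33 and 1.13 CPM in Ad-GFP replicates 2 and 3, and 0.917 CPM in replicate 1. Of 3 tested, 2 were called higher (28.9% of all tested rows were), on few reads: Cd68 had at most 24 in any library. Ptprc and Adgre1 were at 0 in all 3 Ad-GFP libraries. Endothelial markers summed to 6.80 to 7.78 CPM in the libraries labelled Ad-RNF128, against 4.76 and 4.55 CPM in Ad-GFP replicates 2 and 3, and 6.12 CPM in replicate 1. Both tested ones, Vwf and Cdh5, were called higher, and Cdh5 had at most 15 reads in any library. In such bulk cultures fewer cells of a type and less RNA per cell cannot be told apart, and the part of cell composition in the chaperone values was not tested.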

How the data were processed

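RNA of 6 libraries was sequenced, and 1 table per library was deposited. Per the submitters' processing notes, HISAT2, HTSeq 0.13.5 and the build mRatBN7.2 were used. The deposited values are read counts per gene in 5 tables. The table of Ad-GFP replicate 1 was treated as deposited expected counts, because 1 value (344.5) is not whole, and was rounded. No source used here states the strand setting, so reads of overlapping or antisense genes may be mixed.

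CPM was computed as counts times 1000000 over the library total. Rows were filtered with filterByExpr, scaled with TMM and tested with edgeR 4.0.16 (R 4.3.3) by the quasi-likelihood test, adjusted by Benjamini-Hochberg over all tested rows, threshold 0.05. SEs were derived from the log2 change and its F statistic. Without Ad-GFP replicate 1 the spread is pooled over 3 and 2 libraries. Alternatives included DESeq2 1.42.0 and limma 3.58.1. Intervals cover counting error only. Replicates differed by more than sampling noise.

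The 10 genes and all lists were chosen with earlier results of these data known. The text names the 10 genes, the 4 smallest p of each list and the 5 genes most like Hspa5. Listed genes not matched by name (Ppp1r15a, Creb3, Pln, Pax7) were not analysed here. Gene lengths were not used, so CPM values of different genes are not on a common scale.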

Additional observations from a re-analysis of the deposited data

How the results depend on the processing

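Without Ad-GFP replicate 1, the count of the 10 genes called lower stayed within 1.5 times of 5 under each alternative that kept Ad-GFP replicates 2 and 3. The count called higher was 1 except 2 with library totals alone, where Dnajb9 was added. There the log2 change of Hspa5 reversed to 0.0083. With all 6 libraries 0 of the genes were called under each alternative except without Ad-GFP replicate 1, so that leaving out single libraries gave 0 to 6 calls, 0 to 1 higher and 0 to 5 lower. Over all rows edgeR called 0, against 8 with library totals alone, 386 with DESeq2, 14 with limma-voom and 0 to 7501 when single libraries were left out. Signs over all 6 libraries reversed for several genes. Leaving out single libraries gave log2 changes of -0.15 to 0.42 for Hspa5, -0.50 to 0.41 for Hsp90b1, -2.74 to 0.63 for Sdf2l1 and -0.43 to 0.37 for Pdia6, and the sign opposite to that of all 6 libraries came without Ad-GFP replicate 1 and, for Hsp90b1, also without Ad-RNF128 replicate 2 (-0.00058). Median-of-ratios scaling gave -0.033 for Hsp90b1 and -0.026 for Pdia6, and DESeq2 gave -0.033 and -0.027. Limma-voom gave 0.11 for Pdia4, and library totals alone 0.077 for Creld2. Apart from the omission of Ad-GFP replicate 1, the cause was not tested.

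The share of calls that were higher without Ad-GFP replicate 1 was 50.8%, and 69.0% with library totals alone. Same-numbered libraries had correlations of their deviations from the group means of -0.22, 0.03 and -0.19. Deviations from the Ad-GFP mean turn on the outlying replicate 1, so these values cannot decide whether the replicate numbers pair the libraries. With a replicate block edgeR called 0 of the genes over all 6 libraries, where Pdia4 was at 0.076. Without Ad-GFP replicate 1 the block also called Hspa5 and Creld2 (log2 changes of -0.13 and -0.17), and all other calls stood. Ad-RNF128 replicate 1 then had no same-numbered control, so the group difference of that fit drew on the other libraries. Manf, at 0 to 7 counts, did not pass the low-count filter, and why it was so low was not tested.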
